A study of Mus musculus with 2 samples.

Results

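The genes described here are *Klk5*, *Klk6*, *Klk7*, *Klk8*, *Klk9*, *Klk10*, *Klk11*, *Klk13* and *Klk14*, together with *Spink5*. The first 9 are tissue kallikreins of the mouse epidermis, and *Spink5* encodes an inhibitor of some of them. All were chosen by name, as the genes carrying these symbols in the probe annotation of the arrays. They are 10 of 30193 genes with a usable probe. Each has 1 probe and 1 spot on each array. The RNA was total RNA of newborn skin (postnatal day 0, C57BL/6N background), pooled from 6 animals per genotype. The wild-type pool (*Pnpla1*+/+) and the knockout pool (*Pnpla1*-/-, a targeted disruption in all tissues that is lethal in newborns) were each labelled with Cy3 and hybridized to 1 Agilent mouse expression array. With 1 array per genotype there was no replicate, so no test between the genotypes was possible, and every difference describes these 2 pools. Whether a difference exceeds the spread between animals is not known from them.

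Kallikreins are secreted serine proteases that are made as inactive precursors. In the skin they are made mainly by granular keratinocytes, released into the spaces of the stratum corneum, and activated there in a cascade in which KLK5 can activate itself and other kallikreins. The active enzymes cut the proteins of the corneodesmosomes, which hold the outermost cells together until they are shed. LEKTI, the product of *Spink5*, is a Kazal-type inhibitor that is cut into fragments which hold KLK5, KLK7 and KLK14 in check, and its loss causes Netherton syndrome, a disease of detached stratum corneum, scaling and inflamed skin.

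Intensities are given as deposited, in arbitrary units after background subtraction. Each array was then divided by its 75th percentile, 2108 for *Pnpla1*+/+ and 1734 for *Pnpla1*-/-, and each difference is the log2 value of the knockout array less that of the wild-type array, computed after this division, so that a difference of 1 is 2-fold. Over 314 probes printed at least 8 times, the median SD of such a difference between spots was 0.08, and the scanner software's own error for a single-spot difference was 0.20 for each member measured on both arrays. Both errors cover the arrays and not the animals. Well above background were 71.7% of the spots on the *Pnpla1*+/+ array and 73.3% on the *Pnpla1*-/- array, and no spot was saturated.

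The deleted gene was examined first as a check of the labels. The probe of *Pnpla1* (chromosome 17, 29026908 to 29026967 on mm9) read 579 in *Pnpla1*+/+ and 114 in *Pnpla1*-/- skin, a difference of -2.07, or 4.19-fold lower in the knockout pool, in the direction of the labels. In the knockout pool it still exceeded the background limit. Whether the probe lies within the disrupted part of the gene was not determined. By qPCR and immunohistochemistry, the study reported that knockout skin lacked the mRNA and the protein. The labels call the tissue skin, whereas the deposited design also speaks of epidermis. Fibroblast genes (*Col1a1*, *Col1a2*, *Dcn*) and skeletal muscle genes (*Myh8*, *Acta1*, *Ckm*) were well above background on both arrays beside the keratinocyte keratins, so the pools hold transcripts of tissue below the epidermis.

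Most of the epidermal kallikreins were higher in *Pnpla1*-/- skin, whereas *Spink5* differed little. Of the 10 genes, 9 were measured on both arrays. At least 2-fold higher were 6 of these 9, namely *Klk6*, *Klk9*, *Klk10*, *Klk13*, *Klk11* and *Klk7*, beside 5.65% of the 20705 genes measured on both arrays. None was at least 2-fold lower, beside 2.56% of those genes. The 9 differences ran from -0.31 to 5.66 around a median of 1.25, and the median of all genes measured on both arrays was -0.01. Among the 8 measured kallikreins alone the median was 1.56. In these bulk samples, more cells that express a gene and more RNA per cell cannot be told apart.

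**Figure D1:**
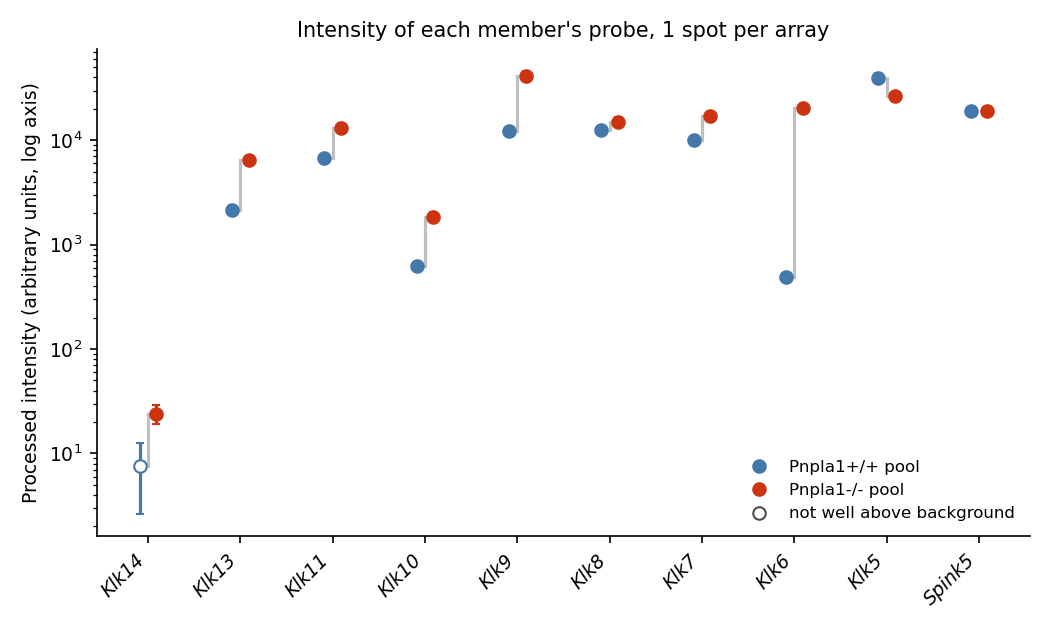
Processed intensity (arbitrary units, log axis) of the 1 probe of each gene on the *Pnpla1*+/+ array (blue) and the *Pnpla1*-/- array (red), before scaling, with genes in chromosomal order and *Spink5* last. Error bars are the scanner software's error of the spot and are mostly smaller than the points, the open point (*Klk14*, 7.54) was not well above background, and only the points of 1 gene can be compared with each other, with the widest gap at *Klk6*, from 490.1 to 20343.

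KLK5, KLK7 and KLK14 are the kallikreins best known from the shedding of corneocytes. *Klk5*, whose trypsin-like product starts the cascade (probe at 51106492 to 51106551 on chromosome 7 of mm9), read 39791 in *Pnpla1*+/+ and 26422 in *Pnpla1*-/- skin. It was the only measured member with a lower value in the knockout pool, with a difference of -0.31, or 1.24-fold lower, and 4289 of the 20705 genes had a lower difference still. *Klk7* encodes the chymotrypsin-like enzyme that cuts corneodesmosin and desmocollin 1. Its probe (51071388 to 51071447) read 9995 in *Pnpla1*+/+ and 17071 in *Pnpla1*-/- skin, a difference of 1.05, or 2.08-fold higher. This value lies close to the 2-fold line, and *Klk7* was under 2-fold in 4 of 10 other ways of processing the arrays, with 0.62 as its lowest difference. *Klk14*, which encodes a further trypsin-like protease (50950330 to 50950389), read 7.54, which is not well above background, in *Pnpla1*+/+ and 24.1, just above it, in *Pnpla1*-/- skin. Set against the lowest intensity well above background on the *Pnpla1*+/+ array, 23.9, *Klk14* was at least 1.23-fold higher in the knockout pool, and its level is not known beyond that bound. On the log2 scale the bound was 0.29, but it was 0.01 without scaling. With spike-in centring, quantile normalization or averaged probes it gave no value, so that a higher value is not shown under any of these settings. The bound could not have reversed, since a bound without a higher value in the knockout pool was recorded as no value. The 3 proteases of this group thus had a lower value, a value near 2-fold higher and a bound.

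*Spink5* (chromosome 18, 44181579 to 44181638 on mm9) read 19120 in *Pnpla1*+/+ and 19039 in *Pnpla1*-/- skin. These intensities were nearly equal before scaling, and the difference after scaling was 0.28, or 1.21-fold higher in the knockout pool. Its direction depended on the scaling, since it was -0.0061 without scaling and -0.16 when the arrays were centred on the spike-in probes. Among all genes measured on both arrays, 5039 had a higher difference than *Spink5*.

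The difference of a kallikrein minus that of *Spink5* does not depend on the factor by which an array is divided. For *Klk7* it was 0.78, which means that the ratio of the *Klk7* signal to the *Spink5* signal was 1.72-fold higher in *Pnpla1*-/- than in *Pnpla1*+/+ skin. For *Klk5* the difference was -0.58, and the ratio to *Spink5* in *Pnpla1*-/- skin was 0.667 times that in *Pnpla1*+/+ skin. The 2 kallikreins whose products LEKTI is best known to inhibit thus lay on opposite sides of their inhibitor's transcript. Of the remaining measured kallikreins, *Klk8* gave 0.28. Each such value carries the software's errors of 2 single-spot differences, 0.20 each, so it is not settled whether *Klk8* lay above *Spink5*. The others lay above it, from 0.98 for *Klk11* through 1.58 for *Klk13*, 1.59 for *Klk10* and 1.78 for *Klk9* to 5.38 for *Klk6*.

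*Klk6* had the largest difference of the 10 genes. It encodes neurosin, a trypsin-like protease studied mostly in the central nervous system. Its probe (chromosome 7, 51086977 to 51087036 on mm9) read 490.1 in *Pnpla1*+/+ and 20343 in *Pnpla1*-/- skin. The difference was 5.66, or 50.5-fold higher in the knockout pool, and 29 of the 20705 genes had a higher one. The probe was well above background on both arrays, so that the value is not a bound.

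*Klk8* encodes neuropsin, a trypsin-like protease of the upper epidermis and the brain. Its probe (51057455 to 51057514) read 12482 in *Pnpla1*+/+ and 15068 in *Pnpla1*-/- skin, a difference of 0.55, or 1.47-fold higher, below the 2-fold line. *Klk11*, which encodes hippostasin (51034552 to 51034611), read 6749 and 13225, a difference of 1.25, or 2.38-fold higher. It was under 2-fold in 2 of the 10 other ways of processing, with 0.82 as its lowest difference. By these values *Klk8* and *Klk11* stood between *Spink5* and the group that follows, although the order of *Klk8* and *Spink5* is not settled.

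For *Klk9*, *Klk10* and *Klk13* the roles of the products in skin are less well known. *Klk9* (51051703 to 51051762) read 12148 in *Pnpla1*+/+ and 41581 in *Pnpla1*-/- skin, a difference of 2.06, or 4.16-fold higher. *Klk10*, whose probe spans 51039077 to 51039720 and so joins parts of the transcript that lie apart in the genome, read 620.03 and 1859, a difference of 1.87, or 3.65-fold higher. *Klk13* (50982064 to 50982123) read 2159 and 6443, a difference of 1.86, or 3.63-fold higher. These 3 differences lay within 0.20 of each other, which is no more than the software's error of 1 of them, so their order is not settled. Higher differences than these were found for 319 genes in the case of *Klk9*, 397 for *Klk10* and 400 for *Klk13*. Together with *Klk6*, these 3 genes were at least 2-fold higher under all 10 other ways of processing the arrays.

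**Figure D2:**
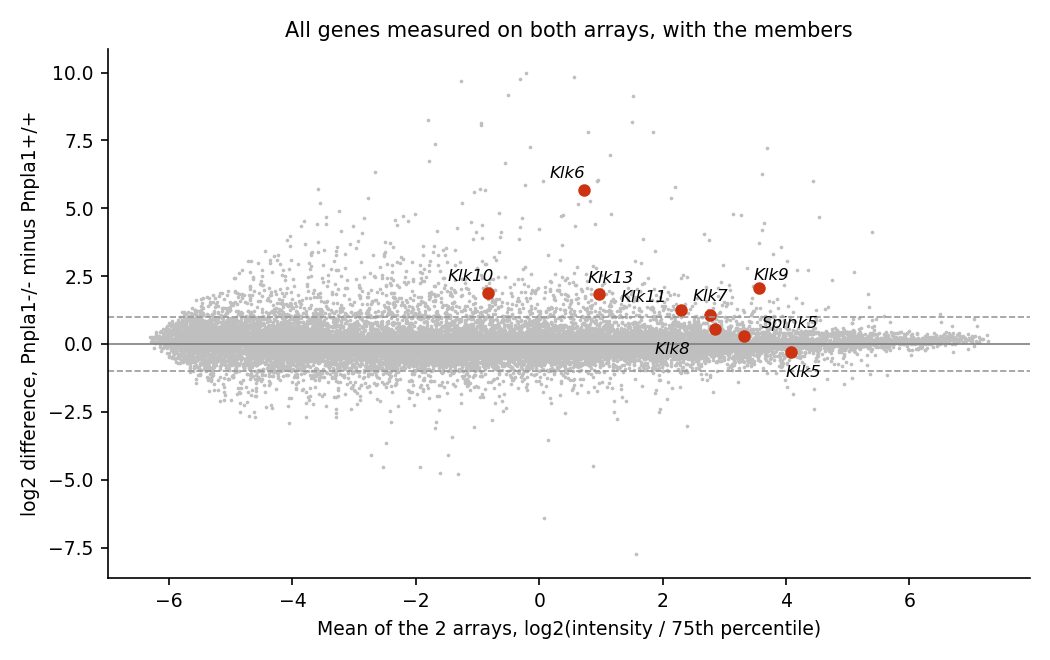
Difference (log2, *Pnpla1*-/- minus *Pnpla1*+/+) against the mean log2 scaled intensity of the 2 arrays for the 20705 genes measured on both (grey) and the 9 measured members (red), with dashed lines at 2-fold. *Klk6* stands farthest from 0 among the members, at 5.66, while *Klk8* (0.55), *Spink5* (0.28) and *Klk5* (-0.31) lie between the dashed lines.

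Because these kallikrein genes lie side by side on the same strand, the sequences just before their transcription starts are shown for *Klk6*, the gene with the largest difference, for *Klk9*, 1 of the 3 genes with differences near 2 whose order is not settled, and for *Klk5*, the only lower one. The windows are the 250 bases before each start in RefSeq on GRCm38.p6, plus strand, read 5′ to 3′, and *Klk6* has 2 annotated starts 906 bases apart. Capitals mark the GC box letters GGGCGG, or CCGCCC where the match is on the other strand.
*Klk6*, first start (chr7:43824294-43824543): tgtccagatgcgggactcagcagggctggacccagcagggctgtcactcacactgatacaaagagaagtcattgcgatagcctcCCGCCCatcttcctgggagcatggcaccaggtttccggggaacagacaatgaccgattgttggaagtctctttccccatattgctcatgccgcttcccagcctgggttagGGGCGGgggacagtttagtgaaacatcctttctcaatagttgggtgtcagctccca
*Klk6*, other start (chr7:43825200-43825449): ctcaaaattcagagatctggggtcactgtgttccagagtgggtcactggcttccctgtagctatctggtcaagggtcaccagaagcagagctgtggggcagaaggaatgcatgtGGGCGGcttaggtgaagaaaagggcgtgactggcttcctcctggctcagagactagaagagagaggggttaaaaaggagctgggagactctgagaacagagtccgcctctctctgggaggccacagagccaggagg
*Klk9* (chr7:43791641-43791890): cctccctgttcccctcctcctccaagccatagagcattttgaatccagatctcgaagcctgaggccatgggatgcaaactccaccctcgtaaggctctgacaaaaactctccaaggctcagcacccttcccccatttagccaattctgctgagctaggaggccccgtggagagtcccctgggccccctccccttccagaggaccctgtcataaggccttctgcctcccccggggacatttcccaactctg
*Klk5* (chr7:43842019-43842268): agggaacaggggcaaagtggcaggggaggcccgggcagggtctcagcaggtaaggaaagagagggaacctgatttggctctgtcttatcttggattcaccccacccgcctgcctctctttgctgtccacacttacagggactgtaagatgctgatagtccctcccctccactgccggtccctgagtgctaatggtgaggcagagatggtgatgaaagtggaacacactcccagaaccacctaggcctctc
The first *Klk6* window holds GC box letters 166 and 56 bases before the start, and the other holds them 136 bases before its start. The *Klk9* and *Klk5* windows, with differences on opposite sides of 0, hold none.

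Across the 11 windows of the 9 kallikrein members, GC box letters stood in 4, both of *Klk6* and those of *Klk7* (49 bases before the start) and *Klk8* (42 bases), beside 32.7% of 32851 promoter windows of the same length in the mouse. C/EBP letters (TTNNGCAA) stood in 2 windows, both of *Klk11*, beside 9.56% of all windows. STAT letters (TTCNNNGAA) stood in 1, that of *Klk10*, beside 7.02%. AP-1 letters (TGANTCA) and TATA box letters (TATAAA) were in none of the 11, beside 6.75% and 12.4% of all windows. Both strands were searched, and no match overlapped another. No motif was common to the 6 genes that were at least 2-fold higher. These matches describe letters in short windows and do not show that a factor binds there.

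The probes of the 9 kallikreins lie within 156 kb on chromosome 7, in the order *Klk14*, *Klk13*, *Klk11*, *Klk10*, *Klk9*, *Klk8*, *Klk7*, *Klk6* and *Klk5*, from 50950330 to 51106551 on mm9. *Klk12*, which is not among the 10 genes, lies between *Klk13* and *Klk11*. Its brightest probe read 37.2 in *Pnpla1*+/+ and 2462 in *Pnpla1*-/- skin, a difference of 6.33, and its other probe read 52.2 and 569, a difference of 3.73. Both probes of *Klk12* were well above background on both arrays and both were higher in the knockout pool, although they differed in size. The 6.33 fell to 5.03 when both probes were averaged and to 4.95 with normexp background correction, and the *Pnpla1*+/+ reading lay near the lowest intensity well above background, 23.9. With *Klk12*, 7 of the 9 measured genes from *Klk14* to *Klk5* were at least 2-fold higher, with a median of 1.86. Members' probes shared at most 10 bases in a row with a probe of another kallikrein, out of 60.

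On the other side of *Klk5*, the locus goes on with *Klk4*, *Klk15* and the *Klk1* and *Klk1b* genes, which encode the glandular kallikreins known from salivary gland and kidney. Of the 17 genes from *Klk4* to *Klk1*, 10 were measured on both arrays, 2 passed the background limit on the knockout array alone and 5 passed it on neither. None of the 10 was 2-fold higher or lower, and they lay between -0.36 and 0.53 around a median of 0.21. *Klk4*, the neighbour of *Klk5* on this side and best known from the enamel of teeth, read 143 and 92.0, a difference of -0.36. The bounds were at least 1.33-fold higher for *Klk1* and at least 2.34-fold higher for *Klk1b4*. The *Klk1* and *Klk1b* genes are near-identical copies, and their probes may share signal, so that their single values are uncertain.

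**Figure D3:**
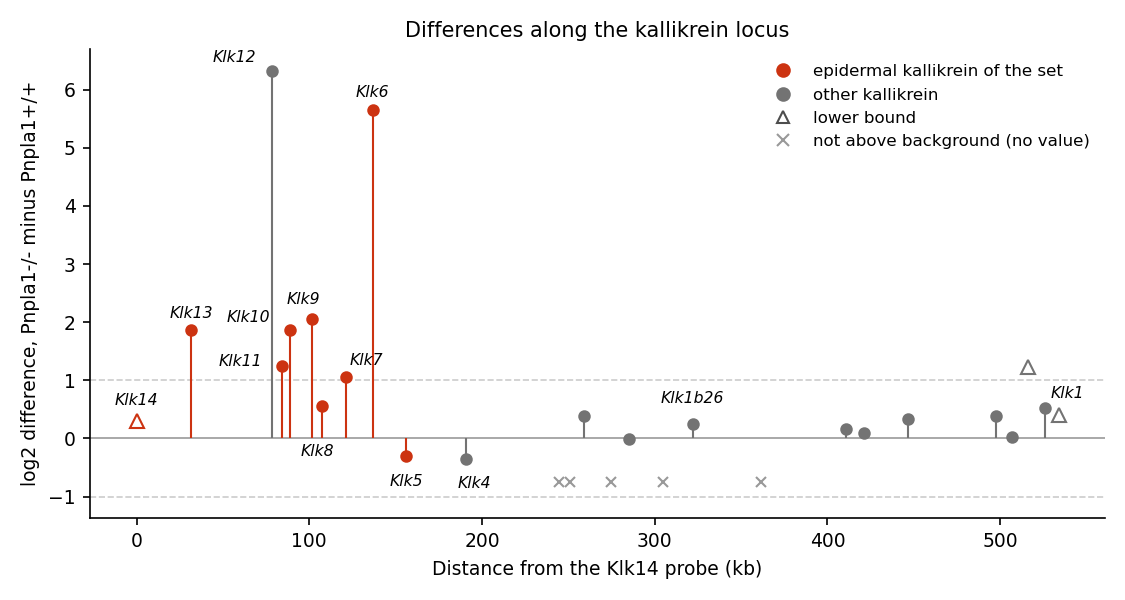
Difference (log2, *Pnpla1*-/- minus *Pnpla1*+/+) of the 27 kallikrein genes by distance of the probe from that of *Klk14* in kb, with the 9 members in red, other kallikreins in grey, triangles for lower bounds, crosses for genes not above background on either array and dashed lines at 2-fold. Measured differences above 2-fold lie between *Klk13* and *Klk6*, and the measured genes from *Klk4* on lie between -0.36 and 0.53.

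Genes without a *Klk* symbol within 1 Mb of these probes were given for comparison. They include *Egfbp2* (a difference of 0.24), whose probe overlaps that of *Klk1b26*, and an unnamed probe that overlaps that of another *Klk1b* gene. The set is therefore not free of kallikrein sequence. Of 62 such genes, 48 were measured, with a median of 0.13. At least 2-fold higher were 3 and at least 2-fold lower none, beside 5.65% and 2.56% of all genes measured on both arrays. The largest differences among the measured genes were those of *Napsa*, an aspartic protease gene (125 and 574, a difference of 2.48), *Spib*, a transcription factor gene of lymphoid cells (139 and 364, 1.67), and *Siglecg* (28.4 and 52.0, 1.16), while *Gm2511*, known only as a bound, was at least 2.41-fold higher. The *Pnpla1*+/+ reading of *Siglecg* lay near the lowest intensity well above background on that array, 23.9. Within 1 Mb of *Spink5* on chromosome 18, where other Kazal-type inhibitor genes lie, there were 23 genes. Of these, 12 were measured, none was 2-fold higher and 3 were at least 2-fold lower, with a median of -0.39. The 3 lower ones were *Gm94* (31531 and 3197, a difference of -3.02), *Spink3* (-1.79) and *Spink14* (-1.35).

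Genes that act with the kallikreins were then described by list. Among 15 further Kazal and Kunitz inhibitors, 14 had a probe under that name and 6 were measured, of which 1 was 2-fold higher and 1 lower, with a median of 0.07. *Spink3*, a pancreatic trypsin inhibitor, read 181 and 43.1. *Spint1*, which encodes the matriptase inhibitor HAI-1, read 4344 and 7400, a difference of 1.05, and its other probe gave 0.96. *Spint2*, its relative, gave 0.30, *Spink4* was at least 2.33-fold higher and *Spink10* at least 1.47-fold higher. *Spink14*, given above with the neighbours of *Spink5*, was not on this list.

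Secreted inhibitors of other families included the largest difference among the listed genes. Of 10, 9 had a probe, 6 were measured, and 4 of these were at least 2-fold higher and none lower, with a median of 1.504. *Slpi*, which encodes a secretory leukocyte protease inhibitor with affinity for elastase and chymotrypsin-like enzymes, read 244 in *Pnpla1*+/+ and 45044 in *Pnpla1*-/- skin, a difference of 7.81. *Wfdc12*, of the same family, read 261 and 3138, a difference of 3.87. The serpin genes *Serpina3n* (353 and 988, a difference of 1.77) and *Serping1* (4927 and 9583, 1.24) were the others, and *Serpinf2* was at least 1.30-fold higher. *Serping1* was under 2-fold without scaling and with spike-in centring.

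Of 12 proteases that can activate kallikreins or act beside them, all had a probe and 8 were measured on both arrays. None of these 8 was 2-fold higher or lower, and their median was 0.26. *St14*, the gene of matriptase, which can activate pro-kallikreins, gave -0.07 (3473 and 2721). *Tmprss4* gave 0.19, *Tmprss13* gave 0.75 and *Plau*, the gene of urokinase, gave 0.99. *Prss8*, the gene of prostasin, gave -0.36 with its brightest probe and 0.14 with the other, so that its direction is not settled. *Plg* was at least 1.64-fold higher and *Mep1a* at least 1.34-fold lower, and these bounds do not show whether either passed 2-fold.

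The list of proteins that kallikreins cut, or that are discussed as substrates, held 10 genes, all measured, with 4 at least 2-fold higher, none lower and a median of 0.65. The corneodesmosome genes were divided. *Cdsn*, the gene of corneodesmosin, gave 0.38 (39184 and 42006) and *Dsg1a* gave 0.35 (9136 and 9578), whereas *Dsg1b* gave 1.45 (726 and 1627), *Dsg1c* 1.04 (455 and 771) and *Dsc1*, the gene of desmocollin 1, 1.20 (3339 and 6299). *Il1b*, the gene of an inflammatory cytokine precursor, read 132 and 776, a difference of 2.84. *Dsg1c* and *Dsc1* were under 2-fold without scaling and with spike-in centring, and *Dsg1c* also with scaling by the median. *Dsc1* and *Il1b* were named by the study from these same arrays and are not independent evidence of the list's direction. *Camp*, the gene of the antimicrobial cathelicidin, gave 0.18, and *Fn1*, the gene of fibronectin, gave -0.37.

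Of the protease-activated receptors, which trypsin-like kallikreins can cut at the cell surface, *F2rl1* (the gene of PAR2) gave -0.16 (201 and 148) and *F2r* (PAR1) gave -0.38, and *F2rl2* and *F2rl3* were not well above background on either array. *Tslp*, a cytokine gene that PAR2 signalling is known to raise in keratinocytes, read 50.6 in *Pnpla1*+/+ and 435 in *Pnpla1*-/- skin, a difference of 3.39. It was the 1 gene at least 2-fold higher among the 3 measured in this list of 5, whose median was -0.16. The difference of *F2rl1* was smaller than the software's error of a single-spot difference.

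Other proteases of the upper epidermis, 7 genes and all measured, had a median of 0.59, with 3 at least 2-fold higher and none lower. These were *Blmh*, the gene of bleomycin hydrolase, which degrades filaggrin (16164 and 39653, a difference of 1.58), *Ctsc*, the gene of cathepsin C, which removes dipeptides from the amino end of proteins (1.33), and *Ctsd*, the gene of cathepsin D (1.01). The other probe of *Ctsd* gave 0.99, under 2-fold, so that its count rests on the choice of probe. The retroviral-like aspartic protease gene *Asprv1* gave 0.28, *Ctsb* 0.59 and *Ctsl* 0.14. The other kallikreins as a list, 17 genes including *Klk12*, held 11 measured genes with 1 at least 2-fold higher, none lower and a median of 0.25.

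**Figure D4:**
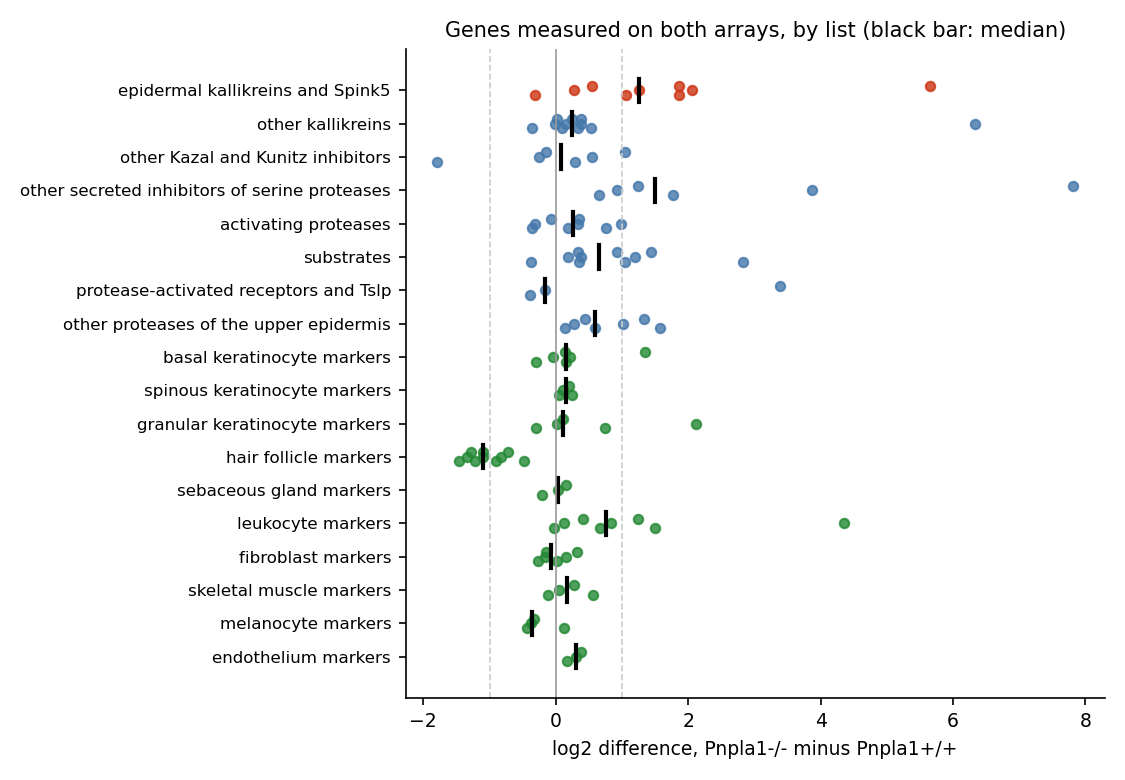
Difference (log2, *Pnpla1*-/- minus *Pnpla1*+/+) of each gene measured on both arrays, by list, with the 9 measured genes of the report in red (*Klk14* is a bound and is not drawn), the lists of related genes in blue, the markers of cell types in green, a black bar at each list's median and dashed lines at 2-fold. The medians were 1.25 for the epidermal kallikreins and *Spink5*, 1.504 for other secreted inhibitors and -1.10 for hair follicle markers.

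Markers of the cells that the skin pools could hold were set beside these values. Granular keratinocyte markers, from the layer that makes kallikreins and LEKTI, had a median of 0.11 over 5 measured genes of 6. *Lor*, the gene of loricrin, gave -0.30. *Tgm3* was the 1 gene over 2-fold, at 2.12, but its other probe gave 0.03. Spinous markers had a median of 0.15, none of 4 past 2-fold, and basal markers 0.15, with *Krt14* (1.35) as the 1 of 6 over 2-fold. The medians of these keratinocyte lists, the granular one without *Flg*, thus lay closer to 0 than that of the kallikreins.

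Hair follicle and leukocyte markers differed between the pools. All 10 hair follicle markers were lower in *Pnpla1*-/- skin, 6 of them at least 2-fold, between -1.47 and -0.48, and their median was -1.10. Their scaled intensities summed to 105 on the wild-type array and to 55.2 on the knockout array, with the probe of *Krt71* as the brightest. Such a sum is weighted by the brightest probes and compares the 2 arrays, not the genes. Of 9 leukocyte markers, 8 were measured and 3 were at least 2-fold higher, with a median of 0.76 and a summed scaled intensity of 15.7 and 22.7, in which the probe of *Csf1r* was the brightest. *Mpo*, from neutrophil granules, read 32.2 and 541 (a difference of 4.35), *Ptprc* gave 1.51 and *Emr1* 1.24. The 32.2 lay near the lowest intensity well above background on the *Pnpla1*+/+ array, 23.9. The other probe of *Mpo* was only a bound, at least 3.65-fold higher. Under 2-fold were *Cd68* (0.84), *Csf1r* (0.67), *Ly6g* (0.42) and *Cd3e* (0.13). The brightest probe of *Itgam* gave -0.03 while its dimmer ones gave 1.14 and 2.84, and *Cd207*, which marks Langerhans cells, did not pass the background limit on any array. The part of these cells in the differences of the kallikreins was not tested.

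The remaining marker lists held no gene past 2-fold by its brightest probe. Their medians were 0.04 for sebaceous gland (3 genes), -0.07 for fibroblasts (6), 0.16 for skeletal muscle (4), -0.35 for melanocytes (4) and 0.31 for endothelium (3). The sebaceous median is that of *Scd3*, a desaturase gene, whose dimmer probes gave 0.57 and 1.02 and so disagree with the brightest.

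**Figure D5:**
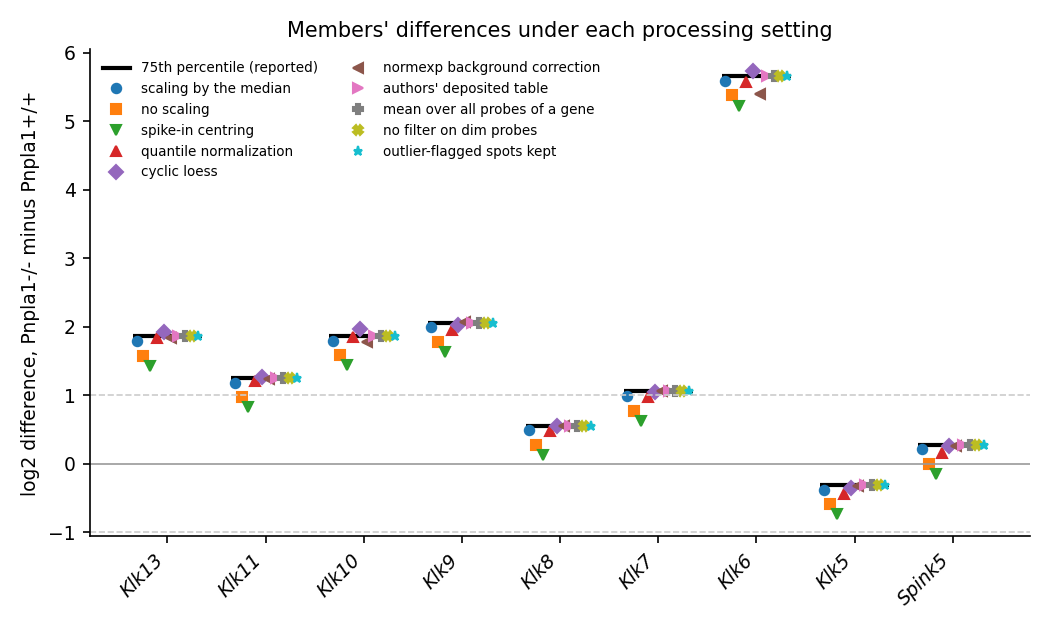
Difference (log2, *Pnpla1*-/- minus *Pnpla1*+/+) of the 9 measured members under the reported scaling (black line) and 10 other ways of processing (symbols), with dashed lines at 2-fold. *Klk6*, *Klk9*, *Klk10* and *Klk13* stay above the upper line, *Klk11* (lowest 0.82) and *Klk7* (lowest 0.62) cross it, and *Spink5* crosses 0 without scaling (-0.0061) and under spike-in centring (-0.16).

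The spread among the 9 measured genes was wider than the shifts that these ways of processing gave. Under spike-in centring every difference was lower by 0.43, and the members' median was still 0.82. *Klk5* ranged from -0.74 to -0.31, *Klk8* from 0.12 to 0.55, *Klk9* from 1.63 to 2.06 and *Klk6* from 5.23 to 5.73. With only 2 arrays no gene could be ranked by how far its pattern over samples resembles that of a kallikrein.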

How the data were processed

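RNA of the *Pnpla1*+/+ and the *Pnpla1*-/- pool was hybridized to 1 array each, both on 1 slide, which leaves no slide effect to estimate. According to the submitters' processing notes, images were read with Agilent Feature Extraction 11.5.1.1. The authors deposited a background-subtracted linear intensity per spot, its error, and flags for background, saturation and outliers. A second deposited table gives the ratio of that intensity to a single factor for each array (2109 and 1734) and served only as an alternative, and the methods speak of a global normalization. Columns of unmapped samples numbered 0.

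From the deposited intensities, log2 of the intensity over the array's 75th percentile was computed (Python 3.11.15, numpy 2.4.6, pandas 2.3.3, matplotlib 3.10.9), without control spots and outlier-flagged spots (138 and 82). Repeated spots were averaged, and a gene took its brightest probe. Where only 1 array passed the background limit, a bound was taken. There the brighter value was set against the lowest value past that limit on the dim array, or against the dim value itself where that was higher. Names and mm9 coordinates are those of the array files, and promoter windows are from RefSeq, GRCm38.p6. Quantile normalization, cyclic loess and normexp (offset 50) used limma 3.58.1 in R 4.3.3. The computation was tested on simulated data. No test between genotypes was run, since precision is limited by having 2 arrays.

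The rule for names took the 10 members, *Pnpla1*, genes of each list that were at least 2-fold different, among its 2 brightest or held as bounds, and the 3 largest differences within 1 Mb. Not all genes that met it are named. Outside the rule, *Klk4*, *Klk15*, *St14*, *Prss8*, *Plau*, *Dsg1a*, *Camp*, *F2rl2*, *F2rl3*, *Ctsb*, *Ctsl*, *Cd207*, *Cd68*, *Ly6g*, *Cd3e*, *Col1a1*, *Dcn*, *Ckm*, *Gm2511* and *Egfbp2* were named after their values were seen. *Flg* was named because it had no probe under that name. *Klk12* was named under the list of other kallikreins. Members, lists, motifs and the naming rule were chosen with earlier results of these data known.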

Additional observations from a re-analysis of the deposited data

How the results depend on the processing

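The 10 other ways of processing were scaling by the median, no scaling, centring on 8 E1A spike-in probes, quantile normalization, cyclic loess, normexp background correction, the ratios deposited by the authors, averaging a gene's probes, no filter on dim probes, and keeping outlier-flagged spots, and thresholds of 1.5-fold and 3-fold were tried beside them. The median difference of the members was 0.97 without scaling, 0.82 with spike-in centring and 1.56 without the filter on dim probes, which admits *Klk14* at 1.96, and moved by no more than the technical SD in the other 7. *Spink5* changed sign without scaling (-0.0061) and with spike-in centring (-0.16). The number of members at least 2-fold higher was 6, and between 4 and 7 in these 10 settings, with none lower in any. At least 1.5-fold higher were 6 members and at least 3-fold higher 4, again with none lower. *Klk7* minus *Spink5* stayed between 0.78 and 0.82. The bound of *Klk14* gave no value with spike-in centring, quantile normalization or averaged probes. *Klk12* fell to 4.95 with normexp.

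Over all genes, 1170 were at least 2-fold higher and 530 lower, so that 68.8% of those past 2-fold were higher. Without scaling these were 780 and 1184 (39.7%), with spike-in centring 654 and 1873 (25.9%), with normexp 881 and 307, and without the filter on dim probes 3047 and 1107 of 30193 genes. At 1.5-fold they were 2396 and 1794, and at 3-fold 546 and 164. The median of all genes shifted by -0.28 without scaling, by -0.43 with spike-in centring and by 0.11 without the filter, so that a listed gene with a difference between 0 and 0.43 turns direction with spike-in centring. For the same reason *Spint1*, *Ctsd*, *Emr1* and *Siglecg* were under 2-fold without scaling and with spike-in centring, and *Ctsc* and *Krt14* with spike-in centring alone. Scaling by the median shifted every difference by -0.07, which put *Spint1*, *Ctsd* and *Dsg1c* under 2-fold as well. The cause was not tested. No paired analysis was possible because there is 1 array per genotype. Low signal limits *Klk14* and 7 of the 17 genes from *Klk4* to *Klk1*, whose probes were not well above background on 1 or both arrays.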
